A study of Mus musculus with 17 samples.

Results

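The Fc receptor genes of mouse monocytes are 6 of the 22180 genes measured on the arrays, namely the Fc gamma receptor genes *Fcgr1*, *Fcgr2b*, *Fcgr3* and *Fcgr4*, *Fcer1g*, which encodes the FcR gamma chain, and *Fcgrt*, which encodes the neonatal Fc receptor. They were taken as a list of symbols. Each was measured by exactly 1 probe set, and all 6 are described. Related Fcgr genes are alike in sequence, the probe sequences were not used here, and cross-hybridization between them was not tested. CD11c.DTR mice carry a receptor for diphtheria toxin (DT) under a CD11c promoter, so that an injection of DT removes CD11c-expressing cells, and the study asked what monocytes then appear in the spleen. RNA of sorted cells was hybridized to 17 Affymetrix arrays. All mice were on the C57BL/6 background and 8 to 12 weeks old by the labels.

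The groups were Ly6Cneg monocytes of the spleen (3 arrays, labelled as from PBS-injected mice, whereas the study's legend gives C57BL/6 mice), Ly6C+ spleen monocytes labelled as induced by Flt3L and G-CSF (3 arrays, given in the study's methods as wild-type mice injected with G-CSF, and called G-CSF-Ly6C+ here), Ly6C+ spleen monocytes taken 48 h after DT (4 arrays, DT-Ly6C+) or 48 h after PBS (4 arrays, PBS-Ly6C+) from CD11c.DTR mice, and common monocyte progenitors of the bone marrow of untreated mice (3 arrays, cMoP). DTR mice were used as both heterozygotes and homozygotes. By the study's legends the DT-Ly6C+, PBS-Ly6C+ and Ly6Cneg cells were sorted as CD115-high and the cMoPs as CD115+. No CD115 gate is named there for the G-CSF-Ly6C+ cells, given as lineage-negative CD11b+Ly6C+. The study's legend gives C57BL/6 mice for the cMoPs as well. All comparisons of cMoPs with monocytes thus also differ in the tissue, and those with DT-Ly6C+ or PBS-Ly6C+ monocytes also in the transgene. By that legend Ly6Cneg monocytes differ from DT-Ly6C+ and PBS-Ly6C+ monocytes in the transgene too. By the study's legend the cells of each subset came from more than 1 experiment, and from single mice or pools of mice, but which array holds which was not given in the sources used here beyond 1 Ly6Cneg array named a pool. P-values measure the spread between these arrays. The array names fall into a G32 set of 8 arrays, with all Ly6Cneg and cMoP arrays and 1 array each of DT-Ly6C+ and PBS-Ly6C+, and a JS set of 9 arrays, with 3 each of G-CSF-Ly6C+, DT-Ly6C+ and PBS-Ly6C+. Arrays are named by set and number below.

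Fc receptors bind the constant part of antibodies and so tie the antibody response to the cells that carry them. In the mouse, the activating receptors encoded by *Fcgr1* (FcγRI, CD64, of high affinity for IgG), *Fcgr3* (FcγRIII, of low affinity) and *Fcgr4* (FcγRIV) signal through the ITAM of the FcR gamma chain, whose phosphorylation recruits Syk, whereas the receptor encoded by *Fcgr2b* carries an inhibitory ITIM that recruits lipid and protein phosphatases. The neonatal Fc receptor pairs with beta-2-microglobulin and spares IgG from breakdown inside cells. In the RefSeq annotation of GRCm38.p6, *Fcgr2b*, *Fcgr4*, *Fcgr3* and *Fcer1g* lie in that order on chromosome 1, *Fcgr1* on chromosome 3 and *Fcgrt* on chromosome 7.

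All 6 genes matched a promoter in the RefSeq table, and *Fcgr3* had 2 start sites there. The windows run from 250 bases before to 50 bases after the start, 5′ to 3′ on the strand of the gene. The promoters of *Fcgr1*, *Fcgr4* and *Fcgr3* are shown because these 3 ligand-binding chains share the FcR gamma chain and yet moved differently between the groups. Capitals mark GAGGAA, a core recognized by the myeloid factor PU.1, searched on both strands and found here as TTCCTC.
*Fcgr1* (GRCm38.p6, chr3:96293920-96294219, minus strand): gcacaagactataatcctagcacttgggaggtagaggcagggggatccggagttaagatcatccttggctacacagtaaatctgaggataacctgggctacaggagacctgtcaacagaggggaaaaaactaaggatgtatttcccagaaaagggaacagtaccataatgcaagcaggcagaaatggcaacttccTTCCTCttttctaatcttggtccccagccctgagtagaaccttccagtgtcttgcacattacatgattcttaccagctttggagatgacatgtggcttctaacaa
*Fcgr4* (GRCm38.p6, chr1:171018676-171018975, plus strand): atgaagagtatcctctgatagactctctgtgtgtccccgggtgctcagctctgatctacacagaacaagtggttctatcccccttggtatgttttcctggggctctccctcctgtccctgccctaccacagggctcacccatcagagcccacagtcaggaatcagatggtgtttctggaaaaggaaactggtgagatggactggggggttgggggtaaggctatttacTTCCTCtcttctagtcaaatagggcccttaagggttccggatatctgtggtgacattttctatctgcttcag
*Fcgr3* (GRCm38.p6, chr1:171059354-171059653, minus strand): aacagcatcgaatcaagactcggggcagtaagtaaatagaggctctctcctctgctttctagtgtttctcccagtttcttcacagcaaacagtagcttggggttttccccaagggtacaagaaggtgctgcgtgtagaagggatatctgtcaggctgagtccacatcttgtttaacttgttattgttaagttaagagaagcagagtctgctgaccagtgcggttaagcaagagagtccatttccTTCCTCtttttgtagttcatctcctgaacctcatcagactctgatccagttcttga

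TTCCTC began at position -55 from the start in *Fcgr1*, -22 in *Fcgr4* and -6 in *Fcgr3*, or -15 from the other *Fcgr3* start. Of 32851 promoters of this length, 28.3% held GAGGAA on either strand. The windows of *Fcgr2b*, *Fcer1g* and *Fcgrt* did not hold it. A match describes these letters and is not evidence of a bound factor.

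The PBS-Ly6C+ array of set G32 stood apart from the other 3 PBS-Ly6C+ arrays. Over all genes it correlated with the DT-Ly6C+ arrays at 0.974 to 0.98 and with the PBS-Ly6C+ arrays of set JS at 0.919 to 0.923, and in 6 of 6 Fc receptor genes it lay nearer to the mean of the DT-Ly6C+ arrays. It was kept in its labelled group, and results that rest on it are given with and without it. Ly6c2 and Csf1r, which encode the Ly6C and CD115 of the sort, were at 12.93 to 13.03 and 11.34 to 11.70 in DT-Ly6C+ arrays, against 11.32 to 11.38 and 9.47 to 9.52 in the PBS-Ly6C+ arrays of set JS. Ly6c2 was at 7.24 to 9.11 in Ly6Cneg arrays. The mean level of 5 Ly6Cneg monocyte markers such as Nr4a1 was 10.41 to 10.96 in Ly6Cneg and 10.74 to 11.17 in DT-Ly6C+ arrays. It was 9.30 to 9.48 in the PBS-Ly6C+ arrays of set JS and 10.79 in that of set G32. Between Ly6Cneg and DT-Ly6C+ monocytes 0 of the 5 were called higher and 1 lower (3.39% of all genes higher, 7.42% lower). In set JS 4 were called higher in DT-Ly6C+ than in PBS-Ly6C+ monocytes, where 10.3% of all genes were. The 3 PBS-Ly6C+ arrays of set JS also held markers of other cells. The mean log2 level of 8 progenitor markers such as Kit and Mpo was 6.19 to 6.40 in DT-Ly6C+ and 10.69 to 10.77 in PBS-Ly6C+ arrays of set JS, with 6.41 in the DT-Ly6C+ and 6.32 in the PBS-Ly6C+ array of set G32. In set JS 7 of these 8 markers were called lower in DT-Ly6C+ than in PBS-Ly6C+ monocytes, where 10.8% of all genes were. So were 6 of 7 neutrophil markers (1 higher), 6 of 6 mast cell and basophil markers and 5 of 5 measured T cell markers. Other lists were less uniform, with 2 of 6 NK cell markers lower and 1 higher, and 2 of 5 macrophage markers lower and 2 higher. Of the B cell, dendritic cell and platelet markers, 1 of 4, 1 of 5 and 3 of 4 were lower and 0 higher. Neutrophils, mast cells, NK cells and B cells are known to carry Fc receptors. Such marker levels move with the comparisons against PBS-Ly6C+ monocytes below, though not in every list. The progenitor markers, for example, were at 10.80 to 10.92 in cMoPs, next to those of the PBS-Ly6C+ arrays of set JS. The part of these markers in the comparisons was not tested. In bulk RNA, fewer cells of a type and less RNA per cell cannot be told apart.

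**Figure D1:**
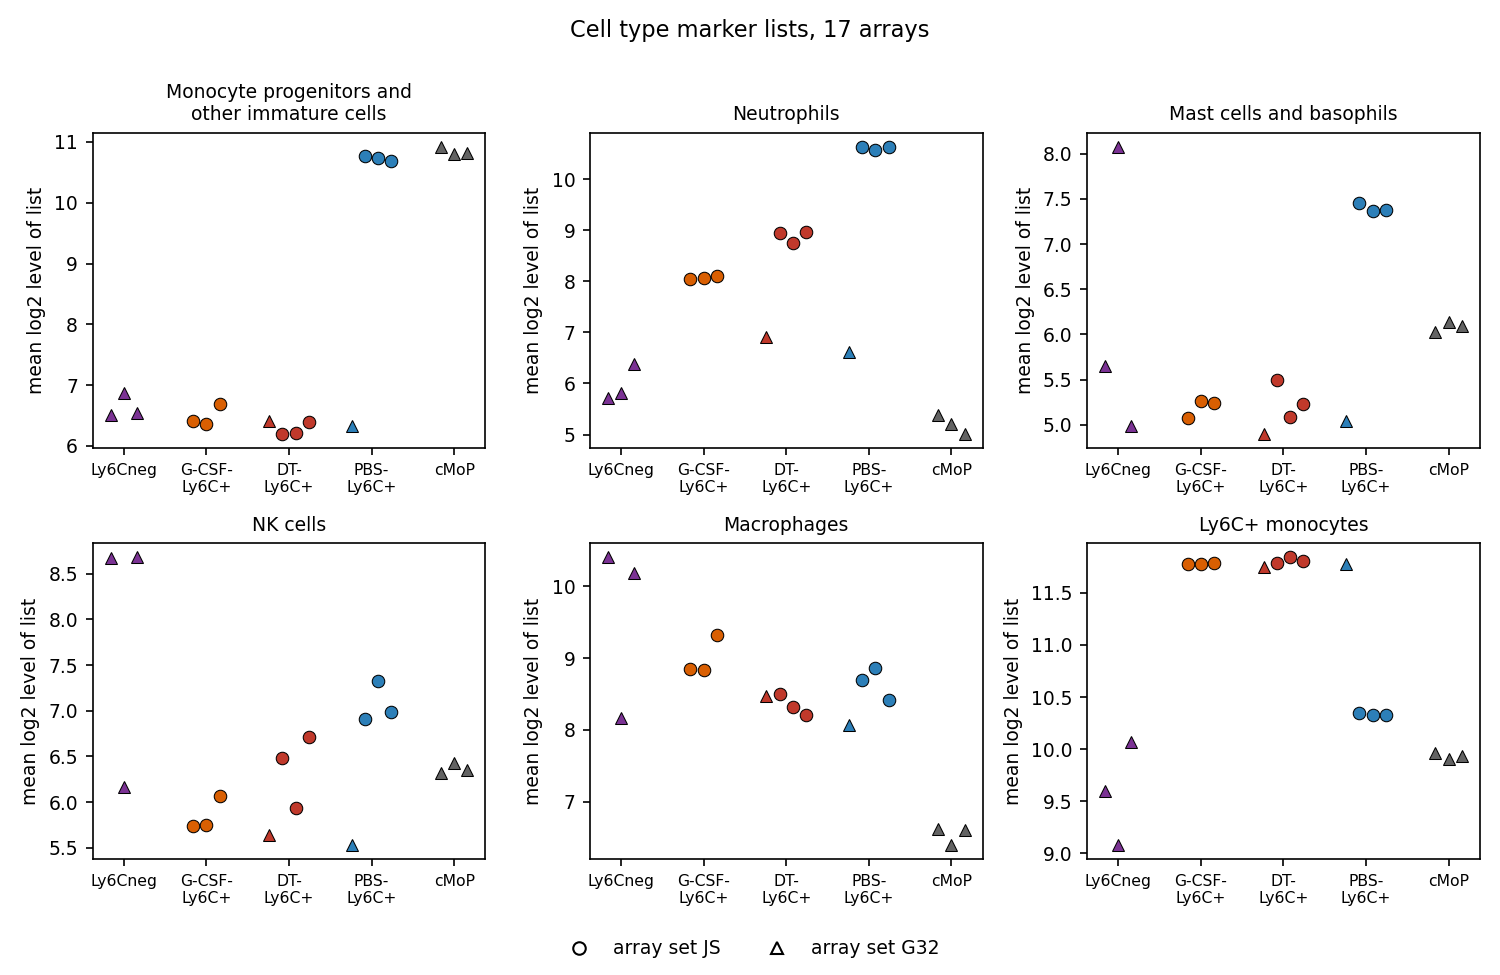
Mean log2 level of 6 lists of cell type markers in each of the 17 arrays, with the groups on the horizontal axis, circles for set JS and triangles for set G32. The progenitor markers of the PBS-Ly6C+ arrays of set JS, at 10.69 to 10.77, lay next to those of cMoPs, at 10.80 to 10.92, while the PBS-Ly6C+ array of set G32 lay with the DT-Ly6C+ arrays.

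Between DT-Ly6C+ and PBS-Ly6C+ monocytes, *Fcgr1*, *Fcgr2b* and *Fcgrt* rose and no member fell in the fit of all 17 arrays (limma with a term for the array set, p adjusted by Benjamini-Hochberg over all genes, threshold 0.05). That is 3 of 6 members called, all higher, where 6.75% of all genes were called higher and 5.74% lower, 12.5% in either direction. The arrays of the groups did not overlap for these 3 genes, as held for 5.3% of all genes with higher and 2.5% with lower values. The median difference of the 6 genes was 0.69, beside 0.01 over all genes. In set JS alone, 4 of 6 rose and *Fcgr4* fell, where 10.3% of all genes were called higher and 10.8% lower (21.1% in either direction), and the median difference was 0.88, beside 0.02 over all genes. The arrays did not overlap in 6 of 6, where 18.5% of all genes were apart with higher and 16.9% with lower values.

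*Fcgr1*, the gene of CD64, had the largest difference of the 6 in this comparison. Its log2 level was 10.14, 9.94 and 9.94 in the DT-Ly6C+ arrays of set JS and 10.24 in that of set G32. The PBS-Ly6C+ arrays of set JS had 6.86, 6.48 and 6.71, and the PBS-Ly6C+ array of set G32 had 9.80. All 4 DT-Ly6C+ arrays thus lay above all 4 PBS-Ly6C+ arrays, but the PBS-Ly6C+ array of set G32 was 0.44 below its DT-Ly6C+ partner while the other 3 were more than 3 below every DT-Ly6C+ array on the log2 scale. The difference was 2.60 (standard error 0.39, adjusted p = 0.000722), a 6.05-fold rise. In set JS it was 3.32 (standard error 0.14, adjusted p = 4.21e-08), or 9.97-fold, and it exceeded that of set G32 by 2.88 in a test of the difference between the sets (standard error 0.52, adjusted p = 0.00233).

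*Fcgr4*, which encodes the receptor for IgG2a and IgG2b complexes, went the other way in set JS. Its level was 8.36, 8.21 and 7.94 in the DT-Ly6C+ arrays of set JS, against 9.32, 9.20 and 9.55 in the PBS-Ly6C+ arrays. In set G32 it was 8.29 in the DT-Ly6C+ array, against 7.22 in the PBS-Ly6C+ array. The 3 DT-Ly6C+ arrays of set JS lay below the 3 PBS-Ly6C+ arrays, whereas in set G32 the DT-Ly6C+ array lay 1.07 above. The difference was -0.62 over all arrays (standard error 0.34, adjusted p = 0.311) and -1.19 in set JS (standard error 0.21, adjusted p = 0.00158), where the level fell 2.27-fold. Without the DT-Ly6C+ or the PBS-Ly6C+ array of set G32, the fit takes this difference from set JS alone. It is then -1.19 by design and no separate check (adjusted p = 0.0053, with the spread of the other arrays). The difference between the sets, tested after the data were seen with a term for group by set, was -2.26 (standard error 0.55, adjusted p = 0.0179), where 8.3% of all genes were called in this way. Set G32 held 1 array of each group, whose spread that test takes from the other groups. The neutrophil markers, whose mean level was 8.75 to 8.96 in DT-Ly6C+ and 10.57 to 10.63 in PBS-Ly6C+ arrays of set JS, moved with *Fcgr4*, a gene that neutrophils also express. They were 6.91 in the DT-Ly6C+ and 6.61 in the PBS-Ly6C+ array of set G32. The sort was lineage-negative, and the study's methods list Ly6G, a neutrophil marker, among the antibodies of a dump gate that was used in some experiments. Their part in the difference was not tested.

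*Fcgr3*, the low-affinity activating receptor, was at similar levels in both groups. It had 10.35, 10.42 and 10.33 in the DT-Ly6C+ arrays of set JS and 10.66 in that of set G32, against 10.09, 10.01 and 10.20 in the PBS-Ly6C+ arrays of set JS and 10.34 in that of set G32. The groups overlapped over all arrays, because the PBS-Ly6C+ array of set G32 reached into the DT-Ly6C+ range, and did not overlap within either set. The difference was 0.28 (standard error 0.11, 95% interval 0.04 to 0.52, adjusted p = 0.14) and did not pass the test, nor did that of 0.27 in set JS (adjusted p = 0.159).

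*Fcgr2b*, the inhibitory receptor, rose. The DT-Ly6C+ arrays had 9.08, 9.12 and 8.86 in set JS and 9.02 in set G32. The PBS-Ly6C+ arrays had 7.60, 7.78 and 7.47 in set JS and 8.86 in set G32. The lowest DT-Ly6C+ array and the PBS-Ly6C+ array of set G32 had nearly the same level, and the other 3 PBS-Ly6C+ arrays lay clearly below. The difference was 1.09 (standard error 0.23, adjusted p = 0.00478) over all arrays and 1.40 (standard error 0.14, adjusted p = 1.74e-05) in set JS, a 2.64-fold rise there.

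*Fcer1g*, whose product carries the ITAM for the activating receptors, varied little between arrays. It had 12.68, 12.66 and 12.63 in the DT-Ly6C+ arrays of set JS and 12.71 in that of set G32, against 12.30, 12.30 and 12.31 in the PBS-Ly6C+ arrays of set JS and 12.63 in that of set G32. The 3 PBS-Ly6C+ arrays of set JS were lower than every DT-Ly6C+ array, and the fourth was level with the lowest of them. The difference was 0.28 (standard error 0.09, adjusted p = 0.0628), not called, and 0.35 in set JS (standard error 0.11, adjusted p = 0.0441), a 1.28-fold rise. Leaving out either of these G32 arrays again takes the difference from set JS alone, so that it is 0.35 by design (adjusted p = 0.0248).

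*Fcgrt* rose in both sets. It had 8.75, 8.90 and 8.87 in the DT-Ly6C+ arrays of set JS, against 7.16, 7.64 and 7.08 in the PBS-Ly6C+ arrays. In set G32 it had 9.47 in the DT-Ly6C+ array, against 8.54 in the PBS-Ly6C+ array. Every DT-Ly6C+ array lay above every PBS-Ly6C+ array, and the G32 difference of 0.92 was the nearest of the called genes to that of set JS. The difference was 1.39 (standard error 0.20, adjusted p = 0.000654) over all arrays, a 2.63-fold rise, and 1.55 (standard error 0.18, adjusted p = 5.93e-05) in set JS. The calls of *Fcgr1*, *Fcgr2b* and *Fcgrt* held in all 17 fits that left out 1 array. For *Fcgr2b*, *Fcgrt*, *Fcer1g* and *Fcgr3* the difference between the sets did not pass its test, with adjusted p = 0.0986 for *Fcgr2b* and above that for the other 3.

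**Figure D2:**
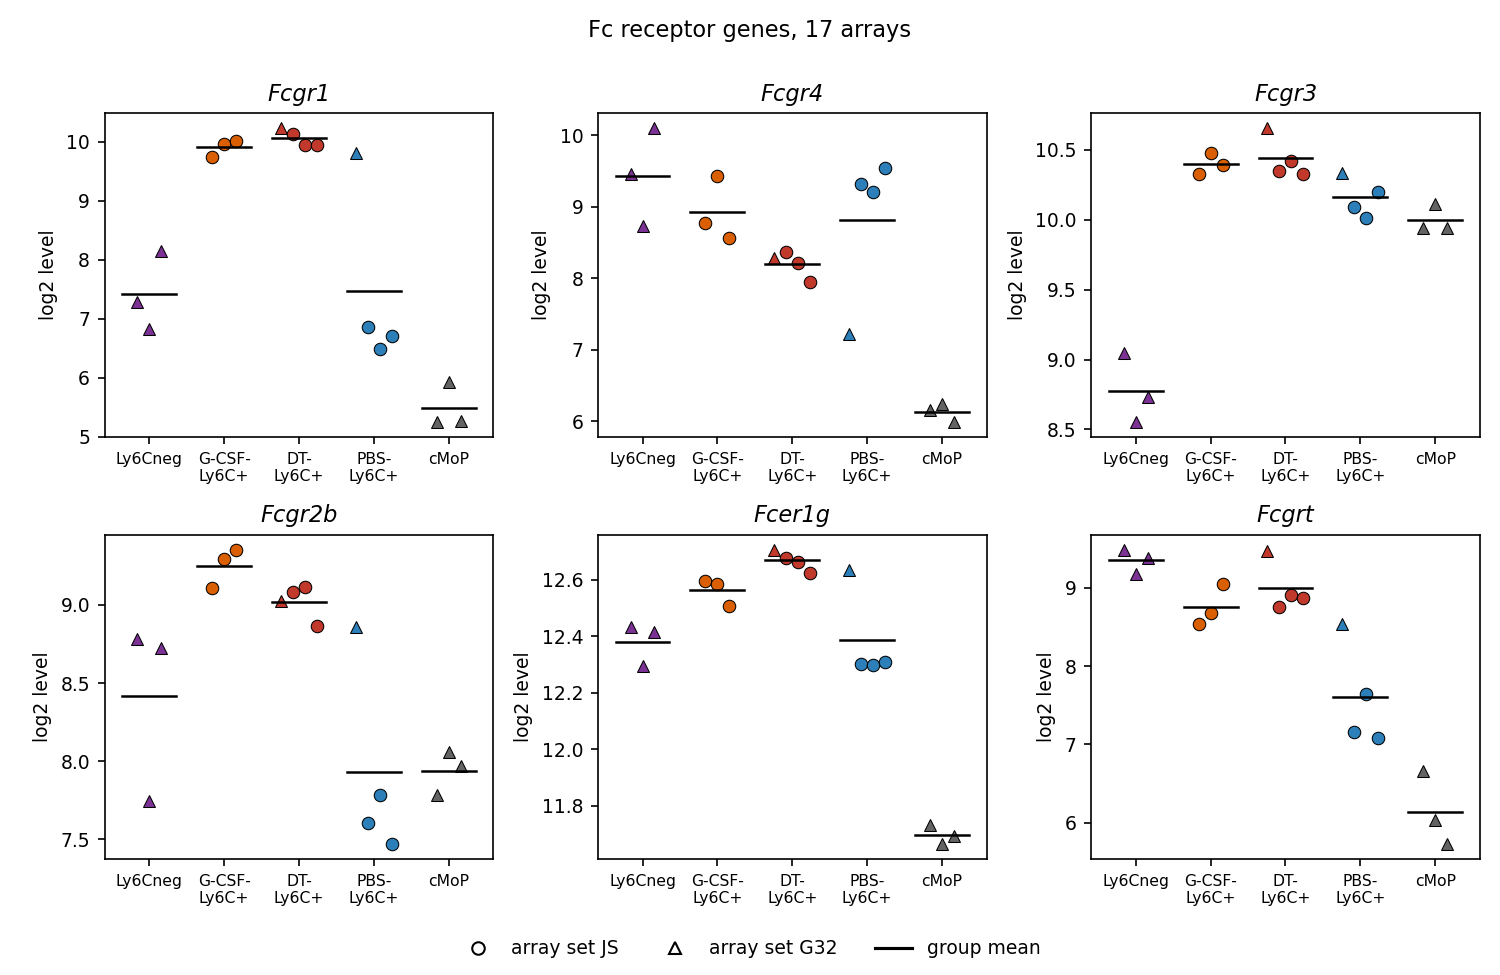
Log2 level of each Fc receptor gene in each of the 17 arrays, with the groups on the horizontal axis, circles for set JS, triangles for set G32 and a bar at the group mean. For *Fcgr1* the PBS-Ly6C+ array of set G32, at 9.80, lies near the DT-Ly6C+ and G-CSF-Ly6C+ arrays, and for *Fcgr4*, at 7.22, it lies below all of them.

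**Figure D3:**
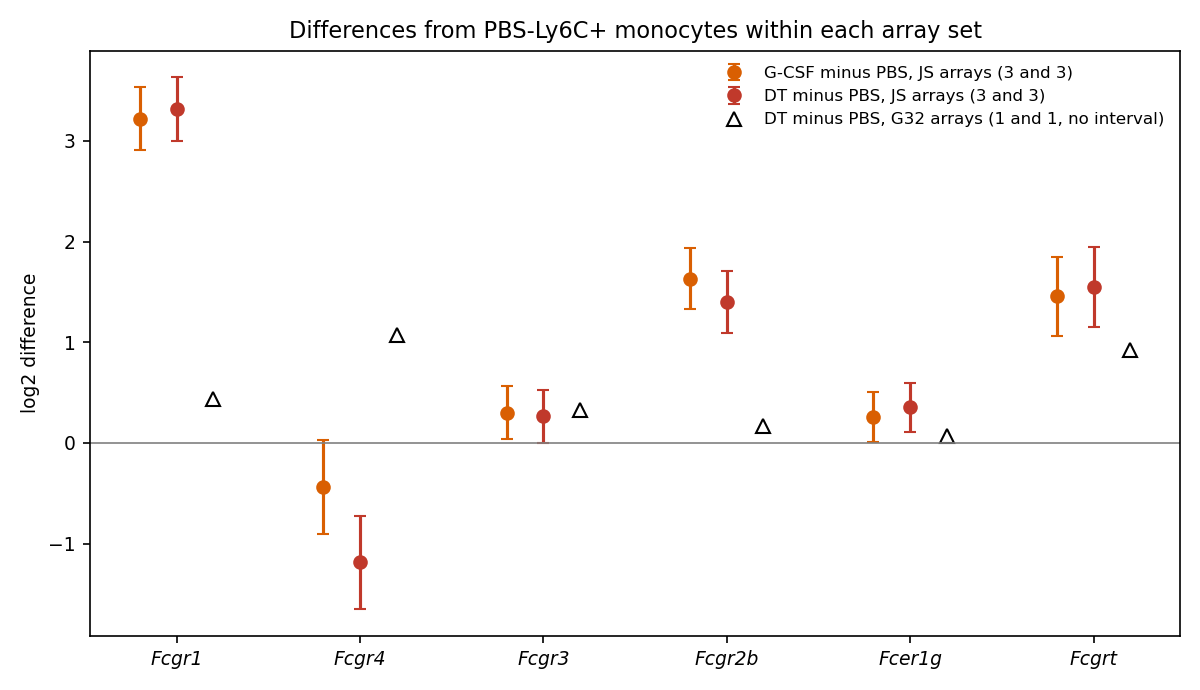
Log2 difference of each gene from PBS-Ly6C+ monocytes within an array set, with 95% intervals for set JS (3 arrays a group) and none for set G32 (1 array a group). In set JS *Fcgr1* was higher by 3.22 in G-CSF-Ly6C+ and by 3.32 in DT-Ly6C+ monocytes, and *Fcgr4* was the only gene of the 6 below 0 there, whereas all 6 G32 differences were above 0.

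G-CSF-Ly6C+ monocytes had the same 3 genes called against PBS-Ly6C+ monocytes as DT-Ly6C+ monocytes did, and all G-CSF-Ly6C+ arrays belong to set JS. This comparison shares its PBS-Ly6C+ arrays with that of DT-Ly6C+ monocytes, so they are not independent. G-CSF-Ly6C+ monocytes also differ from both other groups in the transgene, the schedule of injection and the sort gates named. The part of the gates in the differences was not tested. Of the 6 genes 3 were called, all higher, where 6.28% of all genes were called higher and 6.22% lower, 12.5% in either direction (in set JS 9.73% higher, 10.7% lower and 20.4% in either direction). *Fcgr1* was at 9.74, 9.96 and 10.01 in G-CSF-Ly6C+ arrays, and the difference from PBS-Ly6C+ monocytes was 2.86 (standard error 0.43, adjusted p = 0.000696), or 3.22 in set JS (adjusted p = 5.56e-08). *Fcgr2b* was at 9.11, 9.29 and 9.35 and differed by 1.48 (standard error 0.25, adjusted p = 0.00148), or 1.63 in set JS (adjusted p = 6.06e-06). *Fcgrt* was at 8.53, 8.67 and 9.05 and differed by 1.38 (standard error 0.22, adjusted p = 0.00091), or 1.46 in set JS (adjusted p = 0.000107). In set JS the arrays of these 3 genes did not overlap those of PBS-Ly6C+ monocytes, as held for 18.6% of all genes with higher and 15.6% with lower values, whereas the PBS-Ly6C+ array of set G32 lay inside the G-CSF-Ly6C+ range for *Fcgr1* and *Fcgrt*.

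The other 3 genes did not pass the test between G-CSF-Ly6C+ and PBS-Ly6C+ monocytes. *Fcgr4* was at 8.78, 9.42 and 8.57 in G-CSF-Ly6C+ arrays, with 1 array inside the range of the PBS-Ly6C+ arrays of set JS, and the difference in that set was -0.43 (95% interval -0.90 to 0.03, adjusted p = 0.19). *Fcgr3*, at 10.33, 10.48 and 10.39, differed by 0.30 in set JS (adjusted p = 0.11), and *Fcer1g*, at 12.60, 12.58 and 12.51, by 0.26 (adjusted p = 0.138).

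Between G-CSF-Ly6C+ and DT-Ly6C+ monocytes limma called 0 of the 6 genes, as it called 0% of all genes, and 0 of the 6 had an unadjusted p under 0.05. In set JS 0 of 6 were called, beside 0.0361% of all genes (0.018% higher and 0.018% lower), and 1 of 6 had an unadjusted p under 0.05. That gene was *Fcgr4*, with 8.78, 9.42 and 8.57 in G-CSF-Ly6C+ arrays, against 8.36, 8.21 and 7.94 in DT-Ly6C+ arrays of set JS. The groups did not overlap, and the difference of 0.75 (standard error 0.21, 95% interval 0.29 to 1.22) had an adjusted p = 0.335 over all genes. *Fcer1g* was also apart in set JS, with lower values in G-CSF-Ly6C+ arrays, so that 2 of 6 genes were apart, where 7.16% of all genes were apart with higher and 7.18% with lower values. The intervals in set JS were -0.41 to 0.22 for *Fcgr1*, -0.07 to 0.54 for *Fcgr2b*, -0.48 to 0.30 for *Fcgrt*, -0.23 to 0.29 for *Fcgr3* and -0.34 to 0.15 for *Fcer1g*. The mean level of the 5 macrophage markers, at 8.84 to 9.32 in G-CSF-Ly6C+ and 8.21 to 8.50 in DT-Ly6C+ arrays of set JS, moved with *Fcgr4*. Of these markers *Cd68* went the other way, at 11.73, 11.80 and 11.68, against 11.90, 11.91 and 11.85 in DT-Ly6C+ arrays of set JS. Limma called 0 of the 5 (4 had an unadjusted p under 0.05). The neutrophil markers moved against *Fcgr4*, at 8.05 to 8.10 in G-CSF-Ly6C+ and 8.75 to 8.96 in DT-Ly6C+ arrays of set JS. Limma called 2 of these 7 lower. The part of these cells in the difference was not tested.

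Ly6Cneg monocytes and cMoPs were both measured in set G32, so that their differences do not pass through the term for the array set. The cells do differ in the tissue and, by the labels, in the injection of PBS. Between them 5 of the 6 genes were called, 4 higher and 1 lower in Ly6Cneg monocytes, where 11.9% of all genes were called higher and 18.4% lower, 30.3% in either direction. The arrays of the groups did not overlap for these 5 genes, as held for 24.7% of all genes with higher and 21.9% with lower values. The median difference was 1.31, beside 0.07 over all genes. *Fcgr4* differed the most. It had 9.45, 8.73 and 10.11 in Ly6Cneg arrays 2, new and pool, against 6.15, 6.25 and 5.98 in cMoP arrays 1, 2 and 3, a difference of 3.30 (standard error 0.39, adjusted p = 9.59e-06) or 9.85-fold. *Fcgrt* had 9.49, 9.17 and 9.38 in Ly6Cneg arrays, against 6.66, 6.03 and 5.73 in cMoP arrays, and differed by 3.21 (standard error 0.23, adjusted p = 4.03e-08). Both genes lay far above the cMoP arrays in each of the 3 Ly6Cneg arrays.

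*Fcgr1* was close to the array medians in cMoPs, with 5.25, 5.93 and 5.28 beside array medians of 5.31 to 5.53 over all probe sets. The Ly6Cneg arrays had 7.29, 6.83 and 8.16, and the difference was 1.94 (standard error 0.44, adjusted p = 0.00297), a size that is uncertain at so low a cMoP level. *Fcer1g* had 12.43, 12.29 and 12.42 in Ly6Cneg arrays, against 11.73, 11.66 and 11.69 in cMoP arrays, a difference of 0.69 (standard error 0.11, adjusted p = 0.000142). Every Ly6Cneg array was above every cMoP array in both genes.

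*Fcgr3* was the 1 member that fell. It had 9.04, 8.55 and 8.73 in Ly6Cneg arrays, against 9.94, 10.12 and 9.94 in cMoP arrays, and the difference was -1.22 (standard error 0.13, adjusted p = 3.64e-06), a 2.34-fold fall. *Fcgr2b* did not pass the test, with 8.78, 7.75 and 8.73 in Ly6Cneg arrays, against 7.78, 8.06 and 7.97 in cMoP arrays (difference 0.48, 95% interval -0.08 to 1.04, adjusted p = 0.194). The Ly6Cneg array new was the 1 below the cMoP range, and without it the difference was 0.82 (adjusted p = 0.0149). The other 5 calls held in all 17 fits that left out 1 array, and all 5 held in the G32 arrays alone, where 11.3% of all genes were called higher, 17% lower and 28.3% in either direction.

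The 3 Ly6Cneg arrays differed from each other in markers of other cells. The mean level of 6 NK cell markers was 8.67, 6.16 and 8.68 in arrays 2, new and pool, that of 4 B cell markers 7.89, 6.13 and 8.08, that of 5 macrophage markers 10.40, 8.17 and 10.18, and that of 6 mast cell and basophil markers 5.66, 8.08 and 4.99. In cMoP arrays these lists were at 6.32 to 6.43, 5.49 to 5.73, 6.40 to 6.62 and 6.03 to 6.13. Dendritic cell markers were higher in every Ly6Cneg than in any cMoP array, with a mean level over 5 genes of 7.19, 8.11 and 7.48, against 5.33 to 5.58 in cMoP arrays. The 7 neutrophil markers were at 5.71 to 6.38, against 5.01 to 5.39 in cMoP arrays. Called higher were 3 of 5 dendritic cell, 5 of 5 macrophage and 4 of 7 neutrophil markers, where 11.9% of all genes were. Of the NK cell markers 4 of 6 were higher and 1 lower. Of the B cell and T cell markers 2 of 4 and 1 of 5 were higher. Of the mast cell and basophil markers 0 of 6 were higher and 1 lower, where 18.4% of all genes were lower. The 5 measured T cell markers were at 5.50, 6.42 and 5.46, against 4.59 to 4.79 in cMoP arrays. Array new, the lowest of the 3 in NK, B cell and macrophage markers and the highest in mast cell and basophil, dendritic cell and T cell markers, was also the lowest Ly6Cneg array in all 6 Fc receptor genes. The dump gate used in some experiments also held antibodies to markers of NK, B and T cells. The part of these cells in the Fc receptor levels was not tested.

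**Figure D4:**
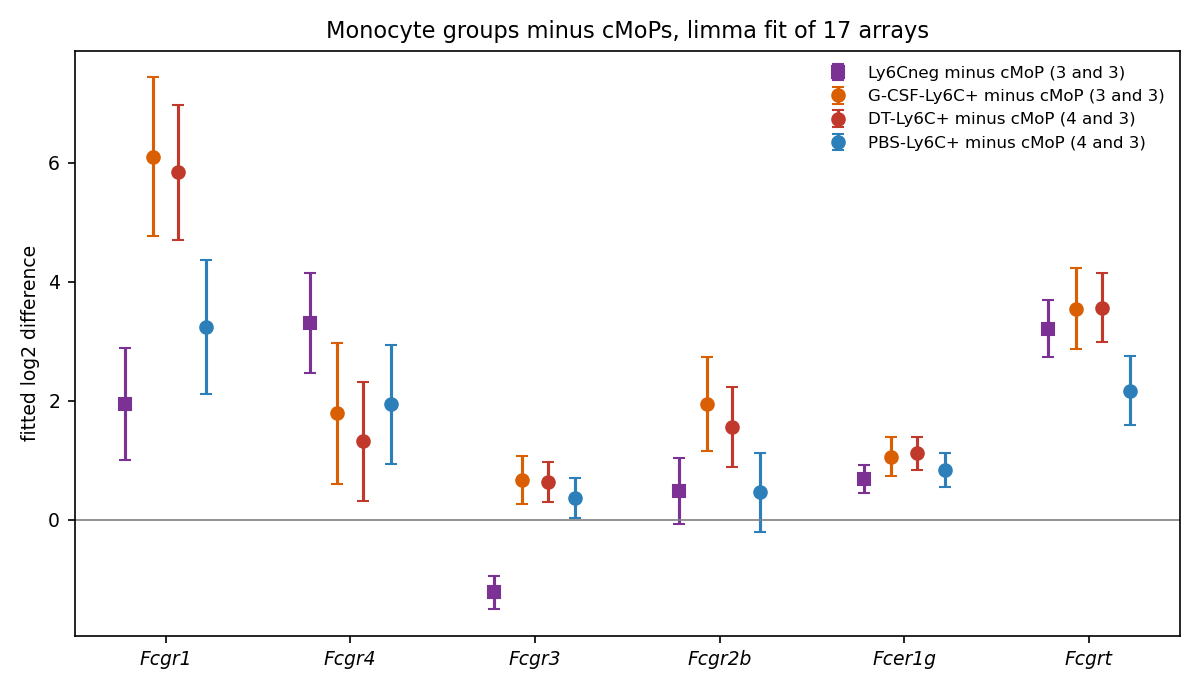
Fitted log2 difference of each monocyte group from cMoPs for the 6 genes, with 95% intervals from the limma fit of 17 arrays. *Fcgr3* lay below 0 in Ly6Cneg monocytes, at -1.22, and above it in the 3 Ly6C+ groups, and *Fcgr1* was above 5 in G-CSF-Ly6C+ and DT-Ly6C+ monocytes.

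Comparisons across the sets pass through the set term, which only the DT-Ly6C+ and PBS-Ly6C+ arrays can set, and which the PBS-Ly6C+ array of set G32 therefore shifts. For *Fcgr1* between Ly6Cneg and PBS-Ly6C+ monocytes, for example, the fitted difference was -1.30 (adjusted p = 0.251), the difference of the group means -0.04, the fit without the PBS-Ly6C+ array of set G32 gave 0.50, and that without the DT-Ly6C+ array of set G32 -2.38 (adjusted p = 0.000892). The values below that cross the sets carry that limit.

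Against cMoPs, DT-Ly6C+ monocytes had 5 of 6 genes called, all higher (11.9% of all genes higher, 13.7% lower, 25.5% in either direction), PBS-Ly6C+ monocytes 4 (6.95% higher, 11.1% lower, 18.1% in either direction) and G-CSF-Ly6C+ monocytes 6 (11.2% higher, 12.6% lower, 23.8% in either direction). *Fcgr1* was higher in DT-Ly6C+ monocytes by 5.84 (standard error 0.53, adjusted p = 7.8e-07), or 4.58 without the term, and in G-CSF-Ly6C+ monocytes by 6.10 (standard error 0.63, adjusted p = 4.21e-06), or 4.42 without it. The DT-Ly6C+ value was 7.64 without the DT-Ly6C+ array of set G32 and 4.76 without the PBS-Ly6C+ array of that set, and the G-CSF-Ly6C+ value 7.54 and 4.66. *Fcgrt* was higher by 3.56 in DT-Ly6C+ and 3.55 in G-CSF-Ly6C+ monocytes, or 2.86 and 2.61 without the term. *Fcgr2b* was higher by 1.55 and 1.94, or 1.08 and 1.31 without the term (2.32 and 2.55 without the DT-Ly6C+, and 1.09 and 1.32 without the PBS-Ly6C+ array of set G32), and *Fcer1g* by 1.12 and 1.06, or 0.97 and 0.87. These 8 calls held whichever array was left out.

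PBS-Ly6C+ monocytes were above cMoPs in *Fcgrt* by 2.17 (standard error 0.27, adjusted p = 5.46e-05), or 1.46 without the term, in *Fcer1g* by 0.83, or 0.69 without it, and in *Fcgr4* by 1.94 (adjusted p = 0.00909), the last lost without the DT-Ly6C+ array of set G32 (1.09, adjusted p = 0.0545) and at 3.35 without the PBS-Ly6C+ array of that set (adjusted p = 0.00035). *Fcgr1* was higher by 3.24 (adjusted p = 0.000572), without the DT-Ly6C+ array of set G32 by 4.32, and without the PBS-Ly6C+ array of that set by 1.44 (adjusted p = 0.092). *Fcgr2b* missed the threshold, at 0.46 (adjusted p = 0.367), and was called without the DT-Ly6C+ array of set G32, at 0.92 (adjusted p = 0.0373). *Fcgr3* differed by 0.36 (adjusted p = 0.139), or 0.16 without the term.

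*Fcgr4* and *Fcgr3* gave less stable values in the other Ly6C+ groups. *Fcgr4* was above cMoPs by 1.31 in DT-Ly6C+ monocytes (adjusted p = 0.0521), by 2.16 without the PBS-Ly6C+ array of set G32 (adjusted p = 0.000734) and by -0.10 without the DT-Ly6C+ array of that set (adjusted p = 0.912). It was also called without Ly6Cneg array new or pool (1.31, adjusted p = 0.0349 and 0.0381), DT-Ly6C+ array JS-3 (1.40, adjusted p = 0.0411) or PBS-Ly6C+ array JS-3 (1.40, adjusted p = 0.0433). In G-CSF-Ly6C+ monocytes it was above cMoPs by 1.78 (adjusted p = 0.0278), a call lost without the DT-Ly6C+ array of set G32 (0.65, adjusted p = 0.339), cMoP array 1 (adjusted p = 0.0501), cMoP array 3 (adjusted p = 0.0601) or G-CSF-Ly6C+ array JS-2 (adjusted p = 0.0757), and at 2.91 without the PBS-Ly6C+ array of set G32. *Fcgr3* was above cMoPs by 0.64 in DT-Ly6C+ monocytes (adjusted p = 0.00613), or 0.60 without the DT-Ly6C+ array of set G32 (adjusted p = 0.0629), and by 0.66 in G-CSF-Ly6C+ monocytes (adjusted p = 0.0157), or 0.69 without the PBS-Ly6C+ array of set G32 (adjusted p = 0.0642) and 0.40 without the term (adjusted p = 0.0566).

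Between Ly6Cneg and Ly6C+ monocytes, *Fcgr3* was lower in Ly6Cneg monocytes in each comparison, with and without the set term and whichever array was left out. It differed by -1.86 (standard error 0.16, adjusted p = 2.05e-06) from DT-Ly6C+, by -1.58 (standard error 0.16, adjusted p = 1.54e-05) from PBS-Ly6C+ and by -1.89 (standard error 0.19, adjusted p = 1.64e-05) from G-CSF-Ly6C+ monocytes, and by -1.67, -1.38 and -1.62 without the term. The highest Ly6Cneg array, at 9.04, lay below the lowest of all Ly6C+ and cMoP arrays, at 9.94. *Fcgr1* was likewise lower in Ly6Cneg than in DT-Ly6C+ monocytes (difference -3.90, standard error 0.53, adjusted p = 0.000163) or -2.64 without the term, and than in G-CSF-Ly6C+ monocytes (-4.16, standard error 0.63, adjusted p = 0.000572, or -2.48 without the term). Without the DT-Ly6C+ array of set G32 these differences were -5.70 and -5.60, and without the PBS-Ly6C+ array of that set -2.81 and -2.72. In all, 5 of 6 genes were called against DT-Ly6C+ monocytes, 1 higher and 4 lower (3.39% of all genes higher, 7.42% lower and 10.8% in either direction), 3 against G-CSF-Ly6C+ monocytes, all lower (2.76% higher, 5.26% lower and 8.02% in either direction), and 2 against PBS-Ly6C+ monocytes, 1 each way (1.67% higher, 2.43% lower and 4.1% in either direction).

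The remaining calls between Ly6Cneg and Ly6C+ monocytes depended on single arrays. *Fcgr4* was higher in Ly6Cneg than in DT-Ly6C+ monocytes by 1.99 (standard error 0.47, adjusted p = 0.0115), with no overlap of the arrays, but by 1.14 without the PBS-Ly6C+ array of set G32 (adjusted p = 0.0994), 3.40 without the DT-Ly6C+ array of that set (adjusted p = 0.0001) and 1.23 without the term (adjusted p = 0.0726). *Fcgrt* was higher in Ly6Cneg than in PBS-Ly6C+ monocytes by 1.04 (standard error 0.27, adjusted p = 0.0399), or 1.74 without the term (adjusted p = 0.00103), and was called in 7 of 17 fits that left out 1 array, namely cMoP array 1 or 3, Ly6Cneg array new, the PBS-Ly6C+ array of set G32, G-CSF-Ly6C+ array JS-1 or JS-3 or PBS-Ly6C+ array JS-2 (adjusted p = 0.0182 to 0.178 over the 17). *Fcgr2b* was lower in Ly6Cneg than in DT-Ly6C+ monocytes (difference -1.07, adjusted p = 0.039), but the call held in 4 of 17 such fits, those without cMoP array 1, Ly6Cneg array 2 or pool, or the DT-Ly6C+ array of set G32 (-1.84), and the difference was -0.61 without the PBS-Ly6C+ array of set G32 and -0.60 without the term (adjusted p = 0.32 and 0.187). *Fcer1g* was also lower (difference -0.43, adjusted p = 0.0448), a call that held in 2 of 17, without the DT-Ly6C+ array of set G32 or G-CSF-Ly6C+ array JS-3, and not without the term (-0.29, adjusted p = 0.113). Against G-CSF-Ly6C+ monocytes *Fcgr2b* differed by -1.46 (adjusted p = 0.0229), was -2.07 without the DT-Ly6C+ array of set G32, and was not called without the term (-0.83, adjusted p = 0.0798), without the PBS-Ly6C+ array of set G32 (-0.84, adjusted p = 0.274), G-CSF-Ly6C+ array JS-2 (adjusted p = 0.0533) or JS-3 (adjusted p = 0.0548). *Fcgr4*, not called against G-CSF-Ly6C+ (1.52, adjusted p = 0.118) or PBS-Ly6C+ monocytes (1.36, adjusted p = 0.146), was called without the DT-Ly6C+ array of set G32 (2.65 and 2.21, adjusted p = 0.00102 and 0.00255), and against G-CSF-Ly6C+ monocytes also without Ly6Cneg array new (1.87, adjusted p = 0.0465).

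The order of the groups differed between the genes. The means below are not adjusted for the array set, whereas the calls come from the fit with the set term. For *Fcgr1* the group means were 7.42 ± 0.67 in Ly6Cneg (SD, n = 3), 9.91 ± 0.14 in G-CSF-Ly6C+ (n = 3), 10.06 ± 0.15 in DT-Ly6C+ (n = 4), 7.47 ± 1.57 in PBS-Ly6C+ (n = 4) and 5.48 ± 0.39 in cMoPs (n = 3). DT-Ly6C+ and G-CSF-Ly6C+ monocytes stood highest and did not differ beyond their spread, nor did Ly6Cneg and PBS-Ly6C+ monocytes, and cMoPs were lowest. For *Fcgr4* the means were 9.43 ± 0.69 in Ly6Cneg, 8.92 ± 0.45 in G-CSF-Ly6C+, 8.20 ± 0.18 in DT-Ly6C+, 8.82 ± 1.08 in PBS-Ly6C+ and 6.13 ± 0.13 in cMoPs. Ly6Cneg monocytes stood highest, then G-CSF-Ly6C+, PBS-Ly6C+ and DT-Ly6C+ monocytes and cMoPs, and no pair of neighbors in this order passed the test over all arrays. The place of PBS-Ly6C+ monocytes rests on their array of set G32, since the other 3 averaged 9.36, above the G-CSF-Ly6C+ mean. For *Fcgr3* they were 8.77 ± 0.25 in Ly6Cneg, 10.40 ± 0.08 in G-CSF-Ly6C+, 10.44 ± 0.15 in DT-Ly6C+, 10.16 ± 0.14 in PBS-Ly6C+ and 9.998 ± 0.101 in cMoPs, with Ly6Cneg monocytes lowest and no other neighbors called.

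For *Fcgr2b* the means were 8.42 ± 0.58 in Ly6Cneg, 9.25 ± 0.13 in G-CSF-Ly6C+, 9.02 ± 0.11 in DT-Ly6C+, 7.93 ± 0.63 in PBS-Ly6C+ and 7.94 ± 0.14 in cMoPs. G-CSF-Ly6C+ and DT-Ly6C+ monocytes stood highest and did not differ beyond their spread. The step from DT-Ly6C+ to Ly6Cneg monocytes was the only 1 between neighbors that was called, at -1.07. It was not called without the set term (-0.60, adjusted p = 0.187). For *Fcer1g* they were 12.38 ± 0.08 in Ly6Cneg, 12.56 ± 0.05 in G-CSF-Ly6C+, 12.67 ± 0.03 in DT-Ly6C+, 12.39 ± 0.17 in PBS-Ly6C+ and 11.70 ± 0.03 in cMoPs, where only the step down to cMoPs was called. For *Fcgrt* they were 9.35 ± 0.16 in Ly6Cneg, 8.75 ± 0.27 in G-CSF-Ly6C+, 8.998 ± 0.318 in DT-Ly6C+, 7.60 ± 0.67 in PBS-Ly6C+ and 6.14 ± 0.48 in cMoPs. Ly6Cneg, DT-Ly6C+ and G-CSF-Ly6C+ monocytes stood highest, with no pair of them called, and the steps down to PBS-Ly6C+ monocytes and to cMoPs were called. In the fit the difference of Ly6Cneg monocytes was -0.35 from DT-Ly6C+ and -0.34 from G-CSF-Ly6C+ monocytes, against the order of these means.

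The machinery behind the receptors was looked at in 4 lists. Between DT-Ly6C+ and PBS-Ly6C+ monocytes, 3 of 19 measured genes of the activating signal were called over all arrays, all higher, with a median difference of 0.27, where 12.5% of all genes were called, so that the share of the list was near that of all genes. *Prkcd*, a protein kinase C, rose by 0.99 (standard error 0.25, adjusted p = 0.0137), *Lat2*, an adaptor, by 0.93 (standard error 0.17, adjusted p = 0.0019) and *Plcg2*, the phospholipase that Syk activates, by 0.71 (standard error 0.18, adjusted p = 0.0185). In set JS 9 of the 19 rose and 2 fell (median 0.32), where 21.1% of all genes were called. *Prkcd* rose there by 1.47, *Lat2* by 1.06 and *Plcg2* by 1.02, and *Syk* itself by 0.73 (standard error 0.12, adjusted p = 0.00114), beside 0.37 over all arrays, which was not called (adjusted p = 0.272). In the G32 pair *Syk* went the other way, at -0.69, as did *Prkcd* at -0.43 and *Plcg2* at -0.22, whereas *Lat2* was at 0.54. The difference between the sets was 1.41 for *Syk* (adjusted p = 0.00342), 1.90 for *Prkcd* (adjusted p = 0.0011) and 1.24 for *Plcg2* (adjusted p = 0.0152). *Rac2*, a small GTPase, fell (difference -0.44, adjusted p = 0.0236), as did *Pik3r1*, a regulatory subunit of the PI3 kinase (difference -0.39, adjusted p = 0.0483).

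Of 10 genes of the inhibitory signal, 3 rose over all arrays and none fell (median 0.37), where 6.75% of all genes were called higher. *Inppl1*, which encodes the lipid phosphatase SHIP2, rose by 1.67 (standard error 0.25, adjusted p = 0.000722), *Cblb*, a ubiquitin ligase that limits receptor signals, by 1.21 (standard error 0.22, adjusted p = 0.00204) and *Dok1*, an adaptor of inhibitory receptors, by 0.99 (standard error 0.19, adjusted p = 0.00286). In set JS 5 rose and 1 fell (median 0.46), where 10.3% of all genes were called higher and 10.8% lower. *Inppl1* was at 5.13 to 5.92 in the PBS-Ly6C+ arrays of that set, close to the array medians of 5.31 to 5.53, so that the size of its rise is uncertain. *Inpp5d*, which encodes SHIP1, the phosphatase that the ITIM of FcγRIIB recruits, rose there by 0.56 (adjusted p = 0.00599), *Csk*, a kinase that restrains Src kinases, by 0.57 (adjusted p = 0.0249), and *Pag1*, its membrane anchor, fell (difference -1.01, adjusted p = 0.000209). In the G32 pair *Cblb* was at -0.13 and *Inpp5d* at -0.20, and *Inppl1* at 0.34 and *Dok1* at 0.76. The difference between the sets was 1.79 for *Cblb* (adjusted p = 0.000225) and 1.77 for *Inppl1* (adjusted p = 0.00583). In set JS both lists held genes called in each direction.

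Of 3 measured partner chains *Tyrobp*, the DAP12 adaptor with an ITAM of its own, rose by 0.32 (standard error 0.10, adjusted p = 0.0495), while *B2m*, the chain that pairs with the neonatal Fc receptor, had a difference of 0.11 and *Hcst* of -0.12, neither called. Of 13 other Fc receptors and Fc-binding proteins, *Trim21*, a cytosolic antibody receptor, rose by 0.57 (standard error 0.18, adjusted p = 0.0475), and 12 were not called (median -0.08). In this comparison 6.75% of all genes were called higher and 5.74% lower. In set JS *Trim21* rose by 0.76 (adjusted p = 0.00227), while *Fcer1a* and *Ms4a2*, the chains of the IgE receptor of mast cells and basophils, and *Fcmr*, the receptor for IgM, fell. There 10.3% of all genes were called higher and 10.8% lower. *Fcer1a* was at 3.17 to 3.53 in DT-Ly6C+ and 3.92 to 4.83 in PBS-Ly6C+ arrays, and *Ms4a2* at 4.33 to 4.69 in DT-Ly6C+ and 5.25 to 5.59 in PBS-Ly6C+ arrays, mostly below the array medians of 5.31 to 5.53, so that the sizes of these falls are uncertain, while *Fcmr* fell by 0.67. *Fcer1a* and *Ms4a2* also belong to the 6 mast cell and basophil markers, whose mean level was 5.09 to 5.49 in DT-Ly6C+ and 7.37 to 7.45 in PBS-Ly6C+ arrays of set JS. In the G32 pair *Trim21* was at 0.01 and *Tyrobp* at 0.02, and *Fcer1a*, *Ms4a2* and *Fcmr* were at 0.01, 0.06 and 0.08.

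**Figure D5:**
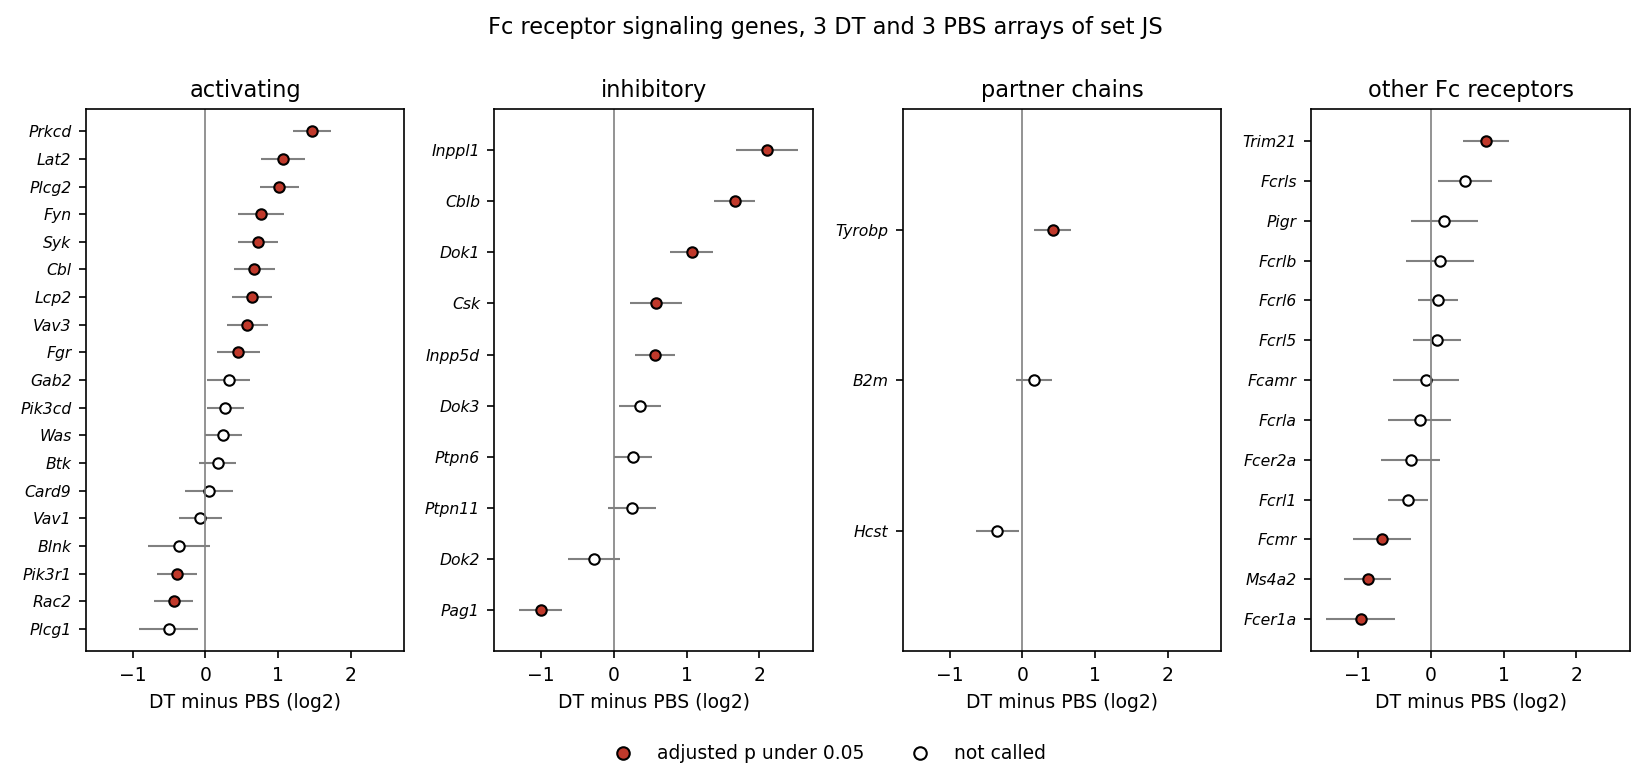
Log2 difference of DT-Ly6C+ from PBS-Ly6C+ monocytes in set JS (3 arrays each) for the measured genes of the activating signal (19), the inhibitory signal (10), partner chains (3) and other Fc receptors (13), with 95% intervals. Filled points passed an adjusted p of 0.05, and *Inppl1*, *Cblb* and *Prkcd* lie farthest to the right.

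In G-CSF-Ly6C+ against PBS-Ly6C+ monocytes of set JS, 9 of the 19 activating genes rose and 1 fell, and 5 of the 10 inhibitory genes rose and 1 fell, where 20.4% of all genes were called in either direction. *Inppl1* differed by 1.80 (adjusted p = 3.82e-05), *Cblb* by 1.76 (adjusted p = 1.98e-06), *Prkcd* by 1.15 (adjusted p = 2.5e-05) and *Syk* by 0.47 (adjusted p = 0.0183). Between G-CSF-Ly6C+ and DT-Ly6C+ monocytes 0 of these 29 genes were called in set JS by limma. In Ly6Cneg monocytes against cMoPs, 7 of 19 activating genes rose and 2 fell, where 30.3% of all genes were called in either direction. *Fgr*, a Src-family kinase of myeloid cells, was at 9.63, 9.79 and 9.99 in Ly6Cneg arrays, against 5.14 to 5.22 in cMoP arrays, which is below the array medians of 5.31 to 5.53, so that the size of its rise is uncertain. *Syk* rose by 1.55 (adjusted p = 5.36e-05). Of the 10 inhibitory genes 8 rose, among them *Inpp5d* by 0.95 (adjusted p = 0.000222), and *Ptpn11*, the phosphatase SHP-2, fell (difference -0.82, adjusted p = 0.000854). Of the 13 other Fc receptors 5 rose there, where 11.9% of all genes were called higher, with *Fcrl1*, a receptor of B cells, at 3.46 (adjusted p = 7.84e-09). *Fcrl1* was at 9.04, 9.62 and 8.57 in Ly6Cneg arrays 2, new and pool, where the mean of the B cell markers was 7.89, 6.13 and 8.08. In cMoP arrays *Fcrl1* was at 5.37 to 5.74, close to the array medians. The part of B cells in its level was not tested.

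The genes most like each member in their levels over the 17 arrays are given as a description, since arrays of a group share their treatment and set. *Fcgr1* was nearest to *Lrp1* (Pearson's r = 0.986), *Asah1* and *Anxa4* (both 0.982). *Fcgr4* was nearest to *Zfp36l1* (0.947), *Tcf7l2* (0.940) and *C1qb* (0.935), and *Fcgr3* to *Mpp1* (0.979), *Tagln2* and *Atp6v1a* (both 0.967). *Fcgr2b* was nearest to *Csf1r* (0.964), the gene of the CD115 used in the sort, and to *Slc26a6* (0.943) and *Anxa4* (0.936), *Fcer1g* to *Klra2* (0.992), *Gm9733* (0.991) and *Klf3* (0.986), and *Fcgrt* to *Ckb* (0.975), *Rnase6* (0.972) and *Hes1* (0.967). *Anxa4* was the only gene named for more than 1 member. By Spearman's correlation 3 of these 18 genes stayed among the nearest 3.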

How the data were processed

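RNA of sorted monocytes and progenitors of 5 groups was hybridized to 17 one-color Affymetrix MoGene arrays. The deposited values are log2 intensities that the authors background-corrected, normalized and summarized to probe sets by robust multi-array averaging (RMA) with the oligo package, and they were used as deposited. Array values have no depth, and the number of arrays limits the precision. Of 41345 probe sets, 23521 carried 1 gene symbol, 1820 several and 16004 none in the platform annotation, which left 22180 genes, each read from its brightest probe set of 1 symbol. Lyn of the activating list, Cd247 of the partner chains and 1 T cell and 1 Ly6C+ monocyte marker had no such probe set and were not analysed here.

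Groups were taken from the labels and compared in 10 pairs with limma 3.58.1 (R 4.3.3), fitted to all genes and arrays with terms for group and array set (11 residual degrees of freedom), with empirical Bayes moderation. P-values were two-sided, adjusted by Benjamini-Hochberg over all 22180 genes and called at 0.05. Comparisons within set JS, and of Ly6Cneg with cMoP within set G32, were refitted on that set alone. The difference of DT-Ly6C+ from PBS-Ly6C+ monocytes was compared between the sets with a term for group by set (10 residual degrees of freedom), a test chosen after the data were seen. The script was tested on simulated data. The Fc receptor genes and gene lists were chosen with earlier results of these data known. The rule named all genes of a pathway list called between DT-Ly6C+ and PBS-Ly6C+ monocytes where 6 or fewer were, or else the 3 largest in each direction, the markers that define the labelled cells, and the 3 genes best correlated with each member among those above the median of all genes. Syk, B2m, Hcst and the pathway genes named for other comparisons were chosen after their values were seen. Alternatives were another or no set term, other samples, quantile normalization, a filter on dim genes (30th percentile), array weights, other moderation, the mean of probe sets, the replicate block and leaving out each array. Promoters were scanned with Python 3.11.15.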

Additional observations from a re-analysis of the deposited data

Results flagged for a closer look

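In 3 of the Fc receptor genes, 1 sample lay far from the others of its group, and in each it was the PBS-Ly6C+ array of set G32. *Fcgr1* was 9.80 on the log2 scale there, where the nearest other PBS-Ly6C+ array was 6.86, a gap of 0.885 of the range of the group. *Fcgr4* was 7.22 there and 9.20 in the nearest other array, a gap of 0.852 of the range. *Fcer1g* was 12.63 there and 12.31 in the nearest other array, a gap of 0.973 of the range. Chance marks about 1 in 20 groups in this way, and the 3 genes share the array.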

How the results depend on the processing

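Between DT-Ly6C+ and PBS-Ly6C+ monocytes 3 Fc receptor genes were called, and 5 in the arrays of set JS alone or with array weights. Leaving out 1 array gave 3 to 5 genes, with 5 without the DT-Ly6C+ or the PBS-Ly6C+ array of set G32. Those 2 fits take the difference from set JS alone. Between Ly6Cneg and PBS-Ly6C+ monocytes 2 were called, 1 with array weights and 1 to 3 when an array was left out. Between Ly6Cneg and DT-Ly6C+ monocytes 5 were called, against 2 with no term for the array set or with only the arrays of these groups, 3 with the set as a random block, with quantile normalization or with array weights, and 2 to 5 when an array was left out. Over all arrays left out in turn, the counts ran from 3 to 3 for G-CSF-Ly6C+ against PBS-Ly6C+, from 0 to 0 for G-CSF-Ly6C+ against DT-Ly6C+, from 2 to 4 for Ly6Cneg against G-CSF-Ly6C+, and against cMoPs from 4 to 6 for DT-Ly6C+, 3 to 4 for PBS-Ly6C+, 5 to 6 for G-CSF-Ly6C+ and 5 to 6 for Ly6Cneg cells. The causes were not tested. Of all alternative log2 differences, 72 lost and 30 gained a call, and 1402 stayed on their side of the threshold. A further 38 were called in neither fit and changed sign. No called value changed sign. The array numbers of set JS were not treated as pairs in the main fits. The deviations of same-numbered arrays correlated at 0.0001 to 0.09, and 5 of 9 were best with their own number. With 3 arrays a group this check cannot tell whether the numbers pair the samples. With the replicate block in set JS, 4 genes were called between DT-Ly6C+ and PBS-Ly6C+ monocytes (*Fcer1g* adjusted p = 0.0684), 3 between G-CSF-Ly6C+ and PBS-Ly6C+ and 0 between G-CSF-Ly6C+ and DT-Ly6C+ monocytes. The test of the difference between the sets was chosen after seeing the data.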
